A study of Homo sapiens with 4 samples.

Results

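The FOS and JUN family of transcription factors, which together form AP-1, was followed through RNA-seq of T24, an established line of human bladder (urothelial) carcinoma cells. The family was taken as its 7 genes FOS, FOSB, FOSL1, FOSL2, JUN, JUNB and JUND, found by gene symbol among the 58302 genes listed, and all 7 were found. The cells compared were T24 in which CRISPR/Cas9 had knocked out IGF2BP3, with 2 libraries (knockout 1 and 2), and T24 labelled as control, also with 2 libraries (control 1 and 2). IGF2BP3 encodes an RNA-binding protein that recognises messenger RNAs, many of them marked by N6-methyladenosine. The knockout is described as a stable line, and neither its number of clones nor a separate culture for each library is stated. The p-values therefore measure only the spread between these samples, taken over genes of similar level, and that spread may be technical.

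AP-1 binds DNA as a dimer of basic leucine zipper (bZIP) proteins. JUN proteins pair with each other or with FOS proteins, whereas FOS proteins need a JUN partner. FOS, FOSB, JUN and JUNB are immediate-early genes, switched on briefly by growth factors and stress through MAP kinases, and their messengers turn over quickly. FOSL1 and FOSL2 encode the FOS-related proteins FRA-1 and FRA-2, which last longer in growing cells, and FRA-1 is known for its part in migration and invasion of carcinoma cells.

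Promoters are shown for the pair of genes without a read in either knockout library, FOS and FOSB, and for the most abundant JUN genes, JUN and JUND. RefSeq windows on GRCh38.p14 (250 bases before the start to 50 after it) were matched for 6 of the 7 members. The 150 bases upstream of the start are printed 5′ to 3′ on the strand of the gene, with motif matches in capitals. They are chr14:75278678-75278827 on the plus strand for FOS, chr19:45467846-45467995 on the plus strand for FOSB, chr1:58784048-58784197 on the minus strand for JUN and chr19:18281623-18281772 on the minus strand for JUND.
FOS: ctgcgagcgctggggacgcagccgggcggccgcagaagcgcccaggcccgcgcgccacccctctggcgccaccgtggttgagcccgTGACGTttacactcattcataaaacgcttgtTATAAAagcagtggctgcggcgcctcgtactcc
FOSB: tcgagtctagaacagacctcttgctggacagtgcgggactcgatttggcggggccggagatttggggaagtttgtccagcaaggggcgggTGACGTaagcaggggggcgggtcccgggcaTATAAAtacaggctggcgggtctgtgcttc
JUN: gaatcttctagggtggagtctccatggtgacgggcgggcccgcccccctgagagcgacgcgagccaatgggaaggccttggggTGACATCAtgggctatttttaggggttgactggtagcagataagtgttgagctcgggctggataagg
JUND: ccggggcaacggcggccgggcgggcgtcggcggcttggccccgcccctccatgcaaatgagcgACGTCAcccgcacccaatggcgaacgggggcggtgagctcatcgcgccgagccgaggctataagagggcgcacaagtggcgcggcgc

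Motifs were searched on both strands of the 300-base windows, with positions counted from the start and negative upstream of it. TGACGT, the core of the cAMP-response site, lay at −64 in FOS, −60 in FOSB and −66 in FOSL2, and 7.98% of 35114 windows held it. JUND held the full palindrome TGACGTCA at −200, found in 1.85% of windows, which contains TGACGT on both strands. A further TGACGT lay on the opposite strand of JUND at −87. JUN held TGACATCA at −67, a sequence known as the AP-1-like site of its own promoter and present in 2.61% of windows. The AP-1 site TGACTCA, present in 4.95% of windows, was matched in FOSL2 alone, at 5 after the start. TATAAA stood at −33 in FOS, −30 in FOSB and −31 in JUNB, against 11.5% of all windows, and had no match in the windows of FOSL2, JUN and JUND. RefSeq starts can differ from the GENCODE 29 gene starts given with each member. A match is a description of letters and no measurement of binding.

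**Figure D1:**
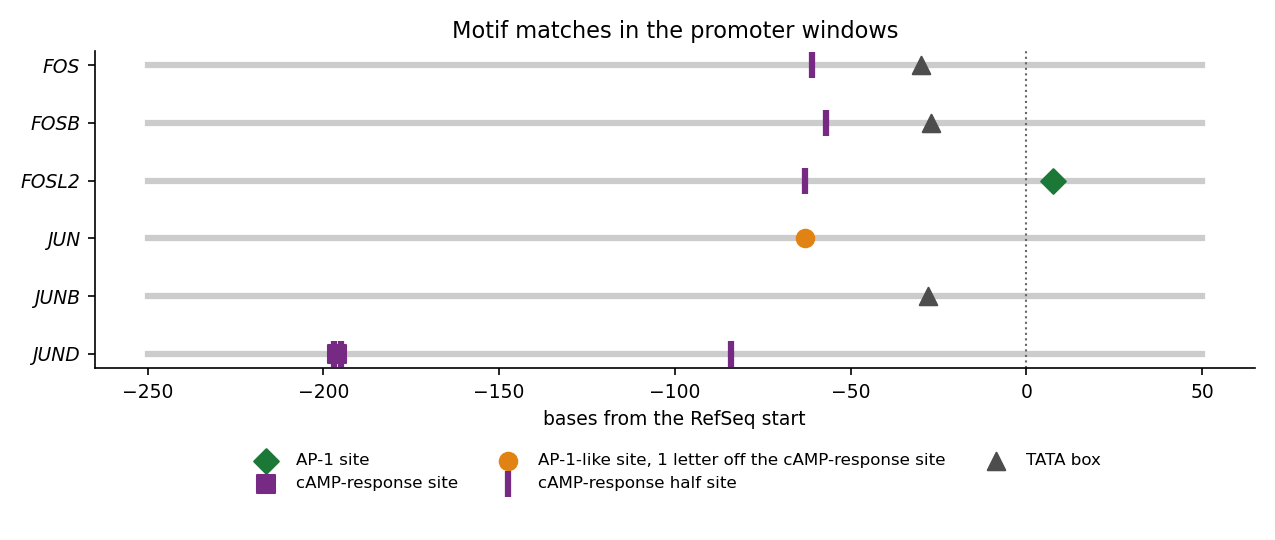
Motif matches in the promoter windows of the 6 members with a RefSeq window, drawn by the distance of their centres in bases from the RefSeq start (dotted line). The cores of FOS, FOSB and FOSL2 start within 6 bases of each other, at −60 to −66, and the AP-1-like site of JUN starts at −67.

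The messengers differed in length and in AU-rich letters, the class of sequence through which immediate-early messengers are known to be degraded. In GENCODE 29 (hg38) JUN, JUNB and JUND have 1 exon each and the FOS genes 4, and the longest transcripts run from 1669 nt (FOSL1) to 6708 nt (FOSL2). The 3′ untranslated region held 5 copies of ATTTA in FOS and 9 in FOSL2, 3 in FOSB and in JUN, 2 in JUNB, and 1 in FOSL1 and in JUND, against a median of 2 over 18636 protein-coding genes. Per kb of that region FOS had the most, 6.20, followed by JUNB with 4.00, against a median of 1.53. FOSL2, whose region is 4864 nt long, had 1.85 per kb, near that median. GGAC, letters at which IGF2BP proteins are known to read N6-methyladenosine, occurred 8.24 times per kb in the JUNB transcript, above 95.3% of genes, and 1.80 times per kb in FOSL1, above 11.03%. The other members had 3.24 to 5.83 per kb. The 30 bases with the most ATTTA copies (in capitals) are shown for the members with the most copies, at chr14:75282059-75282088 for FOS and chr2:28416349-28416378 for FOSL2, both on the plus strand of hg38.
FOS: gtgtttttaATTTATTTAttaagatggatt
FOSL2: attgacATTTAttttattATTTAttttaaa

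The libraries were shallow. Whole reads worked out from the deposited FPKM values (fragments per kilobase of transcript, scaled to library depth) put them at 811823 and 1240207 gene-assigned reads for knockout 1 and 2 and at 2162179 and 1870884 for control 1 and 2, of which 457, 912, 1728 and 885 fell on the family. Of the 11463 genes tested, 49.4% were listed at 0 in at least 1 library. Replicates were no more alike than libraries of different groups. Across these genes log2(FPKM + 0.5) correlated at 0.429 between knockout 1 and 2 and at 0.491 between control 1 and 2. Pairs of a knockout and a control library correlated at 0.416 to 0.493. IGF2BP3 was listed at FPKM 0 and 0.190 in knockout 1 and 2, against 2.94 and 21.5 in control 1 and 2. Its fitted log2 fold change was −3.89 ± 2.83 (SE; adjusted p = 0.955 in limma), so the knocked-out gene itself did not pass the test. It shares 17.9% of its exon bases with MALSU1 on the opposite strand. MALSU1 had FPKM 0 and 1.06 in knockout 1 and 2, against 24.9 and 0.702 in control 1 and 2, and its part in the IGF2BP3 values was not tested. Of 11 urothelial markers, 7 were at 0 in all libraries, among them the uroplakins UPK1A, UPK1B, UPK2 and UPK3A, while KRT8, KRT18 and VIM were read in each. PPARG was read in knockout 1 (FPKM 46.1) and control 2 (6.85), and the uroplakin UPK3B in knockout 2 alone (6.80). The urothelial list summed to 46.1 and 6.80 in knockout 1 and 2, against 0.150 and 7.16 in control 1 and 2. All 5 leukocyte markers and all 3 erythroid markers were at 0 in all libraries, and 3 of 4 endothelial and 3 of 5 fibroblast markers were. Of 6 simple epithelial markers 3 were at 0 in all libraries (KRT19, EPCAM and CDH1), and the list summed to FPKM 1163 to 1499 in the knockouts and 440 to 575 in the controls. Of 4 mesenchymal markers none was at 0 in all libraries, and they summed to 321 to 376 in the knockouts and 177 to 184 in the controls. Most of this sum was VIM, at FPKM 267 and 372 in knockout 1 and 2, against 177 and 172 in control 1 and 2. The part of these differences in the AP-1 values was not tested.

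FOSL1, JUN and JUND carried most of the AP-1 RNA in T24, and no member passed the test between knockout and control. Of the 7 members, 6 reached the mean FPKM of 1 that the test required, and 4 of these 6 were higher and 2 lower in the knockouts by the fitted sign, against 48.2% higher among all genes tested. The count past an adjusted p of 0.05 was 0 in limma (0 at an unadjusted p under 0.05 and 0 in limma-voom on recovered reads). Of all genes tested 0.0872% passed, 0.0611% higher and 0.0262% lower in the knockouts, and 3.91% had an unadjusted p under 0.05. The fitted log2 fold changes had a median of 0.23 and a mean of −0.29, which differ in sign, beside a median of −0.08 over all genes. Without knockout 2 the median was −0.56 and 2 of 6 members were higher, while all genes had a median of −0.56 as well. The family median was below that of all genes without control 2 (0.11 against 0.34). It was above it without knockout 1 (0.56 against 0.16) and without control 1 (0.22 against −0.35). Groups did not overlap for 2 of the 6, FOSL2 (higher) and FOS (lower), against 26.5% of all genes, 12.1% of all genes being higher and 14.4% lower. Fold changes are those of FPKM + 0.5 on the log2 scale, which understates changes of low genes.

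**Figure D2:**
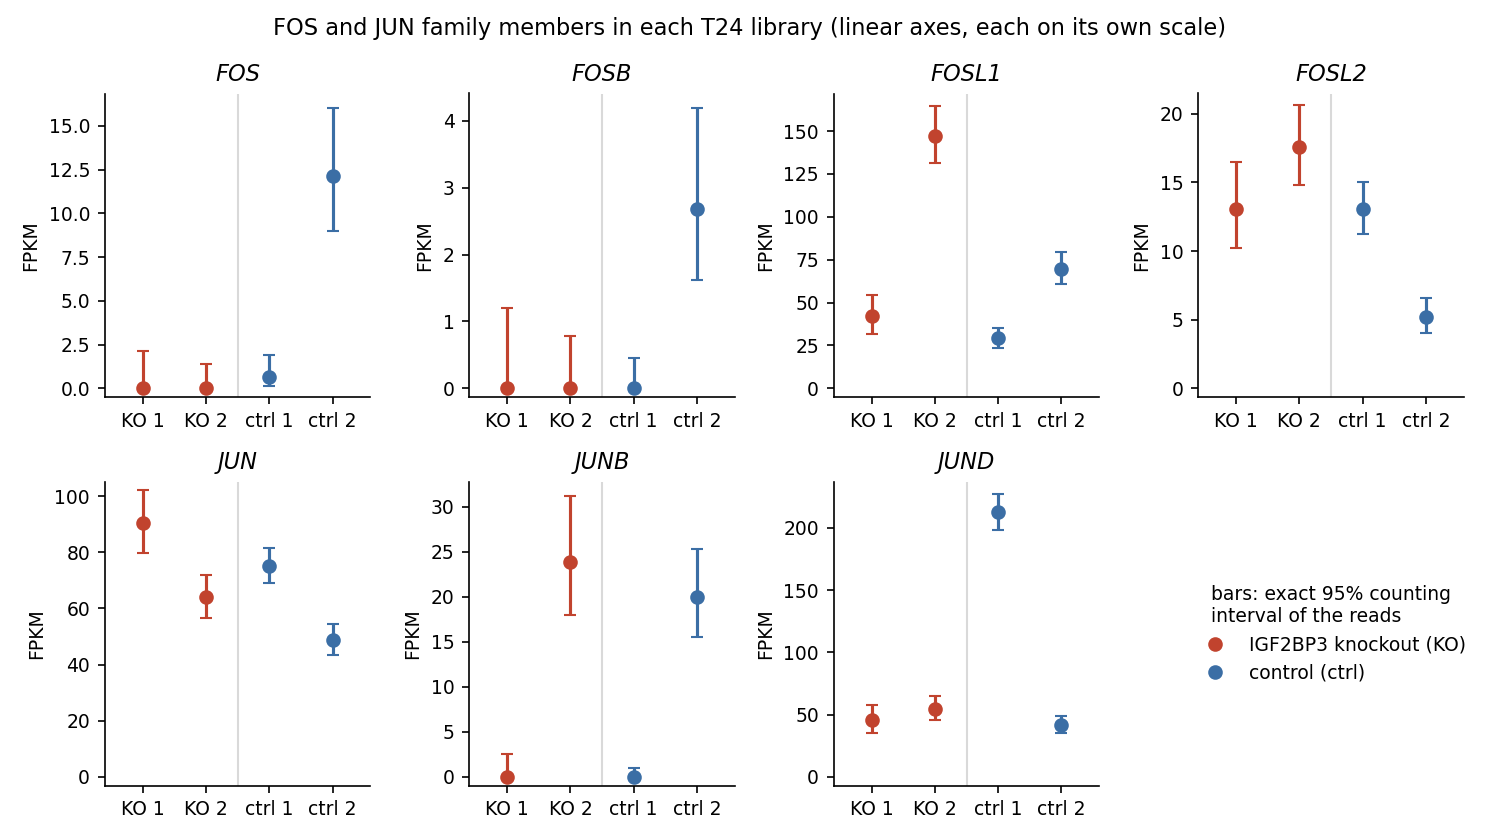
FPKM of each member (linear vertical axes, a scale for each panel) in the knockout and control libraries, with exact 95% Poisson intervals of the reads as bars. FOS and FOSB were at 0 in both knockouts, JUNB was at 0 in knockout 1 and control 1, and JUND was highest in control 1.

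FOS, the founding member and partner of the JUN proteins, was listed at FPKM 0 in both knockout libraries, against 0.643 in control 1 and 12.1 in control 2. The control values stand for 3 and 49 reads, so the level of the group rested on control 2. The groups did not overlap, although a knockout library would have shown 3 reads only from FPKM 1.71 (knockout 1) or 1.12 (knockout 2) upward, above the value of control 1. Of all genes tested, 2.29% were likewise at 0 in both knockouts and above 0 in both controls. Pooled over the groups, FOS reads were at least 8.82-fold lower in the knockouts, taking 3 reads over the group as the floor. This bound was 5.33 without knockout 1, 3.49 without knockout 2 and 17.9 without control 1, and none could be given without control 2. The fitted log2 fold change was −2.93 ± 2.65 (SE, n = 2 and 2) with an adjusted p of 0.955 in limma, and it was −4.66 without control 1 and −1.19 without control 2. FOS spans chr14:75278774-75282230 on the plus strand of hg38.

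FOSB, which like FOS is induced for a short time after stimulation, was listed at FPKM 0 in both knockouts and at 0 and 2.69 in control 1 and 2. All of its 19 reads came from control 2, and its mean lay under the filter, so it was not tested. Its pooled bound was at least 3.22-fold lower in the knockouts (1.95 without knockout 1, 1.27 without knockout 2 and 6.95 without control 1), and without control 2 both groups were at 0. FOSB (chr19:45467995-45475179, plus strand) lies opposite ERCC1, whose exons overlap none of its own. Control 2 was thus the only library in which all 7 members had a read.

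FOSL1 (FRA-1) was the most abundant FOS gene in each library. It had FPKM of 42.1 and 147 in knockout 1 and 2, against 29.1 and 69.5 in control 1 and 2. The groups overlapped, since control 2 stood above knockout 1. It averaged 94.7 ± 74.4 in the knockouts and 49.3 ± 28.6 in the controls (SD, n = 2 each), and replicates differed by 3.50-fold and 2.39-fold, more than the 1.92-fold between the means. On the log2 scale the fitted change was 0.80 ± 0.89 (SE; adjusted p = 0.955 in limma), with a 95% interval of −0.94 to 2.55. It was −0.10 without knockout 2, 0.18 without control 1, 1.42 without control 2 and 1.70 without knockout 1. Counting error was small beside this spread, with 57 to 305 reads per library. FOSL1 lies at chr11:65892049-65900573 on the minus strand.

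FOSL2 (FRA-2) stood at FPKM 13.04 and 17.5 in knockout 1 and 2, against 13.03 and 5.18 in control 1 and 2. The groups were apart by less than 0.01 FPKM between knockout 1 and control 1, a gap far inside the counting intervals of 10.2 to 16.4 and 11.2 to 15.03, and control 2 was the low library. Its fitted log2 fold change was 0.83 ± 1.72 (SE; adjusted p = 0.977 in limma), 0.21 without control 2 and 1.46 without control 1, and 1.52 after quantile normalization. FOSL2 lies at chr2:28392448-28417312 on the plus strand.

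JUN, the partner common to most AP-1 dimers, varied least from library to library relative to its mean. Its FPKM was 90.5 and 64.0 in knockout 1 and 2, against 75.1 and 48.8 in control 1 and 2, and the groups overlapped. It averaged 77.2 ± 18.7 in the knockouts and 61.9 ± 18.6 in the controls (SD, n = 2 each), a difference smaller than the SD of either group. The fitted log2 fold change of 0.33 ± 0.85 (SE; adjusted p = 0.989 in limma) had a 95% interval of −1.34 to 1.99, so a change of that size in either direction could not be told from none. It lay between 0.02 and 0.64 with a library left out, with the low end without control 2. JUN lies at chr1:58780788-58784327 on the minus strand.

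JUNB, which can hold back JUN activity in some settings, was read in 1 library of each group. It had FPKM 0 and 23.9 in knockout 1 and 2, against 0 and 19.97 in control 1 and 2. The libraries with reads held 54 and 68 of them, and control 1, the deepest library, would have shown 3 reads from FPKM 0.762 upward. The same pattern, 0 in knockout 1 and control 1 and above 0 in knockout 2 and control 2, was present in 7.35% of the genes tested. Its log2 fold change of 0.13 ± 2.73 (SE; adjusted p = 0.999 in limma) was −2.68 without knockout 2 and −2.55 without control 1, against 2.93 without knockout 1 and 2.81 without control 2. JUNB (chr19:12791496-12793315, plus strand) shares 14.2% of its exon bases with HOOK2 on the opposite strand. The strand setting of the counting is not given, so reads of the shared bases may belong to either gene. HOOK2 had FPKM 3.79 and 12.1 in knockout 1 and 2 and 4.62 and 9.04 in control 1 and 2, and its part in the JUNB values was not tested.

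JUND, the JUN gene that is steadily expressed in resting cells, had FPKM of 45.6 and 54.5 in knockout 1 and 2, against 213 and 41.3 in control 1 and 2. Control 1 stood far above the other libraries, on 856 reads (exact 95% interval of FPKM 199 to 227), and the remaining control lay below both knockouts. The control replicates thus differed by 5.14-fold and the knockout replicates by 1.20-fold. The fitted log2 fold change was −0.91 ± 0.85 (SE; adjusted p = 0.955 in limma). It was −2.08 without control 2 and turned to 0.27 without control 1, so its direction rested on control 1. JUND lies at chr19:18279760-18281622 on the minus strand.

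**Figure D3:**
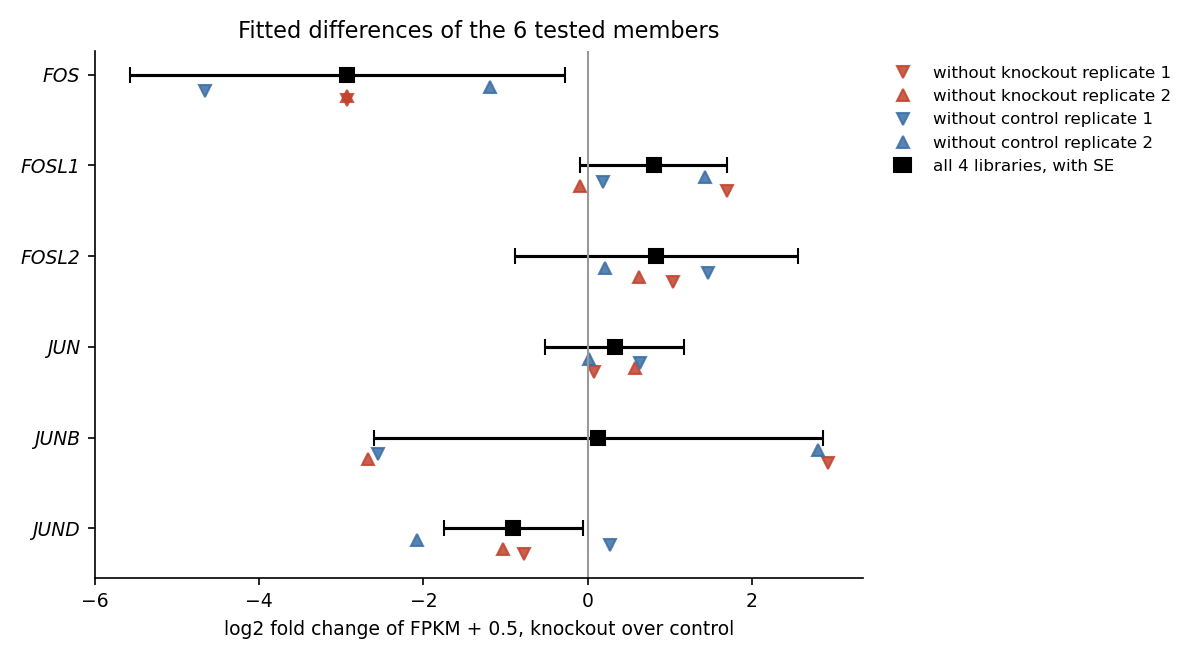
Fitted log2 fold changes of FPKM + 0.5, knockout over control, for the 6 tested members (black squares). Bars are 1 SE, taken from genes of similar level, and triangles give the value when each library was left out. FOS stayed below 0, FOSL2 and JUN stayed above it, and FOSL1, JUNB and JUND took both signs.

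By mean FPKM over the 4 libraries the order was JUND 88.5, FOSL1 72.0, JUN 69.6, FOSL2 12.2, JUNB 10.97, FOS 3.19 and FOSB 0.673. The step from JUN to FOSL2 was the only one where the ranges of neighbours were apart, and JUN was higher in 4 of 4 libraries by 57.4 ± 15.6 FPKM (mean and SD of the difference). For each other pair of neighbours the mean difference was smaller than its SD. The leading member differed between libraries. JUN led in knockout 1 and FOSL1 in knockout 2, while JUND led in control 1 and FOSL1 in control 2. JUN, JUND and FOSL1 together made up 93.2 and 86.5% of the family FPKM in knockout 1 and 2, and 95.9 and 79.97% in control 1 and 2.

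The balance of the JUN and FOS branches varied as much within groups as between them. JUN genes summed to FPKM 136 and 142 in knockout 1 and 2, against 288 and 110.1 in control 1 and 2. FOS genes summed to 55.1 and 165 in knockout 1 and 2, against 42.8 and 89.5 in control 1 and 2. JUN RNA was therefore 2.47 and 0.864 times FOS RNA in knockout 1 and 2, and 6.72 and 1.23 times in control 1 and 2, so the ratios overlapped. FOSL1 alone made up 76.3 and 89.4% of the FOS branch in knockout 1 and 2 and 68.03 and 77.6% in control 1 and 2.

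**Figure D4:**
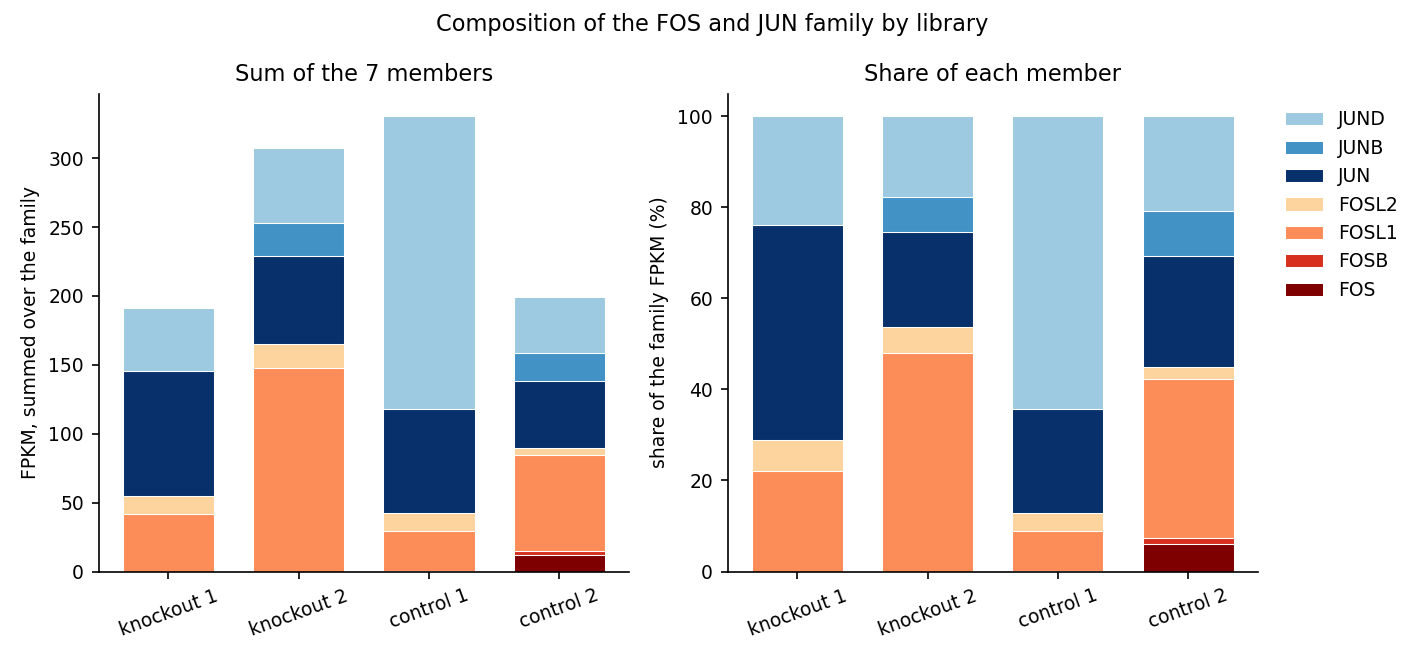
Left, FPKM summed over the 7 members in each library; right, the share of each member in that sum (%), with FOS genes in reds and JUN genes in blues. The sums are 191 and 307 in knockout 1 and 2 and 330.4 and 199.6 in control 1 and 2, and JUND fills 64.3% of the bar of control 1.

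The genes nearest in level and pattern were sought among 9623 protein-coding genes tested, by the Euclidean distance of log2(FPKM + 0.5) over the 4 libraries. Nearest to FOSL1 were PSME3 and AFG3L2, at distances of 0.638 and 0.679. PSME3 had FPKM 37.3 and 100.4 in knockout 1 and 2, against 33.5 and 78.9 in control 1 and 2. Nearest to JUND were ACOT7, PROCR and NT5DC2, at 0.408, 0.746 and 0.816. ACOT7 had 58.8 and 59.4 in knockout 1 and 2, against 194.8 and 43.1 in control 1 and 2, so that it too was highest in control 1. With 4 libraries such likeness is a description only.

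Among bZIP factors that pair with FOS or JUN proteins outside the family, the fitted sign was lower in the knockouts for 8 of 8 tested members of a list of 15, with a median of −1.31, where 48.2% of all genes tested were higher. None passed in limma (0 at an unadjusted p under 0.05), and 7 members, among them ATF3, BATF and MAF, were at 0 in all libraries. Of the 8, 6 were at 0 in at least 1 library. Groups were apart for 3 of the 8, each lower, against 26.5% of all genes (14.4% lower). They overlapped for the rest, among them JDP2, whose log2 fold change was −0.03. MAFG overlapped too, at FPKM 49.6 and 3.04 in knockout 1 and 2, against 16.1 and 23.0 in control 1 and 2. ATF2, a JUN partner at cAMP-response sites, had FPKM 0 and 0.193 in knockout 1 and 2, against 1.55 and 5.76 in control 1 and 2. ATF7, its close relative, had 0 and 0 in the knockouts, against 0.554 and 6.40 in control 1 and 2. ATF4, the effector of the integrated stress response, was abundant, at 293 and 304 in knockout 1 and 2, against 415 and 359 in control 1 and 2 (log2 fold change −0.37 ± 0.48, SE; adjusted p = 0.955 in limma). The count of 8 was 7 after quantile normalization, 6 in limma-voom and 6 without knockout 1, knockout 2 or control 2, each of 8 tested. It stayed at 8 without control 1. Of all genes, 48.8, 50.8, 53.8, 38.0, 54.8 and 40.8% were higher in these fits, in the same order.

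Of the MAP kinases and phosphatases that act on AP-1, 10 of 16 tested were higher and 6 lower, none past the threshold, and their median log2 fold change of 0.23 and mean of −0.22 differ in sign. The median was 0.03 without knockout 1 (8 of 16 higher) and −0.17 without control 2 (7 of 16 higher). All genes had medians of 0.16 (53.8% higher) without knockout 1 and 0.34 (54.8% higher) without control 2. DUSP5, a phosphatase of ERK in the nucleus, had FPKM 0 and 0.315 in knockout 1 and 2, against 33.8 and 23.6 in control 1 and 2. Its log2 fold change of −5.49 ± 2.57 (SE) lay between −5.85 and −5.14 with a library left out, with an adjusted p of 0.955 in limma. DUSP10, a phosphatase of JNK and p38, had 0 and 3.31 in knockout 1 and 2, against 42.7 and 8.79 in control 1 and 2. DUSP6, a cytoplasmic ERK phosphatase, had 2.24 and 1.83 in knockout 1 and 2, against 0.210 and 0.486 in control 1 and 2, on 8 and 10 reads in the knockouts and 2 and 4 in the controls. The JNK genes MAPK8 and MAPK9 overlapped between groups. For transcription factors acting on the FOS and JUN promoters 6 of 10 were higher, with a median of 0.58 (−0.33 and 4 of 10 without knockout 2), and none passed. Without knockout 2 all genes had a median of −0.56, and 38.0% of them were higher. MRTFB, a partner of SRF, was the only gene of the 10 whose groups were apart (26.5% of all genes were), at FPKM 9.52 and 6.05 in knockout 1 and 2, against 3.78 and 3.64 in control 1 and 2.

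Of other immediate-early genes 8 of 17 tested were higher and 9 lower, none past the threshold. The median log2 fold change was −0.19 and the mean 0.26, which differ in sign. The median was 0.58 without knockout 1 (12 of 17 higher), 0.04 without knockout 2, −0.02 without control 1 and 0.18 without control 2. All genes had medians of 0.16, −0.56, −0.35 and 0.34 in these fits, in the same order. MCL1, which encodes a survival protein of the BCL2 family, had FPKM 215 and 104 in knockout 1 and 2, against 37.5 and 49.1 in control 1 and 2. Its log2 fold change was 1.79 ± 0.80 (SE; adjusted p = 0.955 in limma), between 1.26 and 2.31 with a library left out. ZFP36, which encodes the AU-rich element binding protein tristetraprolin, had 2.07 and 2.26 in knockout 1 and 2, against 0 in both controls, on 8 reads in all. The nuclear receptor gene NR4A2 had 0 and 1.16 in knockout 1 and 2, against 2.80 and 6.31 in control 1 and 2, and IER5 had 0.882 and 2.50 in knockout 1 and 2, against 0.663 and 0 in control 1 and 2. Of the 17, 3 were apart higher and 1 apart lower, a share near the 26.5% of all genes.

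Of 22 literature targets of AP-1, 11 were tested and 10 were at 0 in all libraries, among them the collagenase and stromelysin genes MMP1, MMP3, MMP10 and MMP13. Of the 11, 6 were higher and 5 lower, with a median of 0.06, and none passed, while 3 had an unadjusted p under 0.05 (3.91% of all genes did). The median was 0.68 without knockout 1 (9 of 11 higher), −1.29 without knockout 2, −0.11 without control 1 and −0.22 without control 2. All genes had medians of 0.16, −0.56, −0.35 and 0.34 in these fits, in the same order. PLAU, which encodes urokinase, was at FPKM 214 and 123 in knockout 1 and 2, against 8.35 and 29.2 in control 1 and 2 (log2 fold change 3.33 ± 0.95, SE; adjusted p = 0.182 in limma). CXCL8, which encodes interleukin-8, was at 19.5 and 47.3 in knockout 1 and 2, against 0 and 0.627 in control 1 and 2, and CCND1, the cyclin D1 gene, was at 91.2 and 227 in knockout 1 and 2, against 359 and 316 in control 1 and 2. Both had an adjusted p of 0.955 in limma. For turnover and cofactors of AP-1 proteins 3 of 10 were higher and 7 lower, with a median of −1.12 (−0.55 and 4 of 10 higher without control 2). Without control 2 all genes had a median of 0.34, and 54.8% of them were higher. MEN1, whose product menin binds JUND, had 0.390 and 3.06 in knockout 1 and 2, against 16.7 and 11.3 in control 1 and 2. COPS5, a JUN coactivator, had 0 and 6.52 in knockout 1 and 2, against 21.9 and 8.83 in control 1 and 2. NCOA1, a nuclear receptor coactivator, had 0.499 and 0.109 in knockout 1 and 2, against 4.81 and 5.77 in control 1 and 2. None of these 3 passed (adjusted p = 0.955 each in limma).

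**Figure D5:**
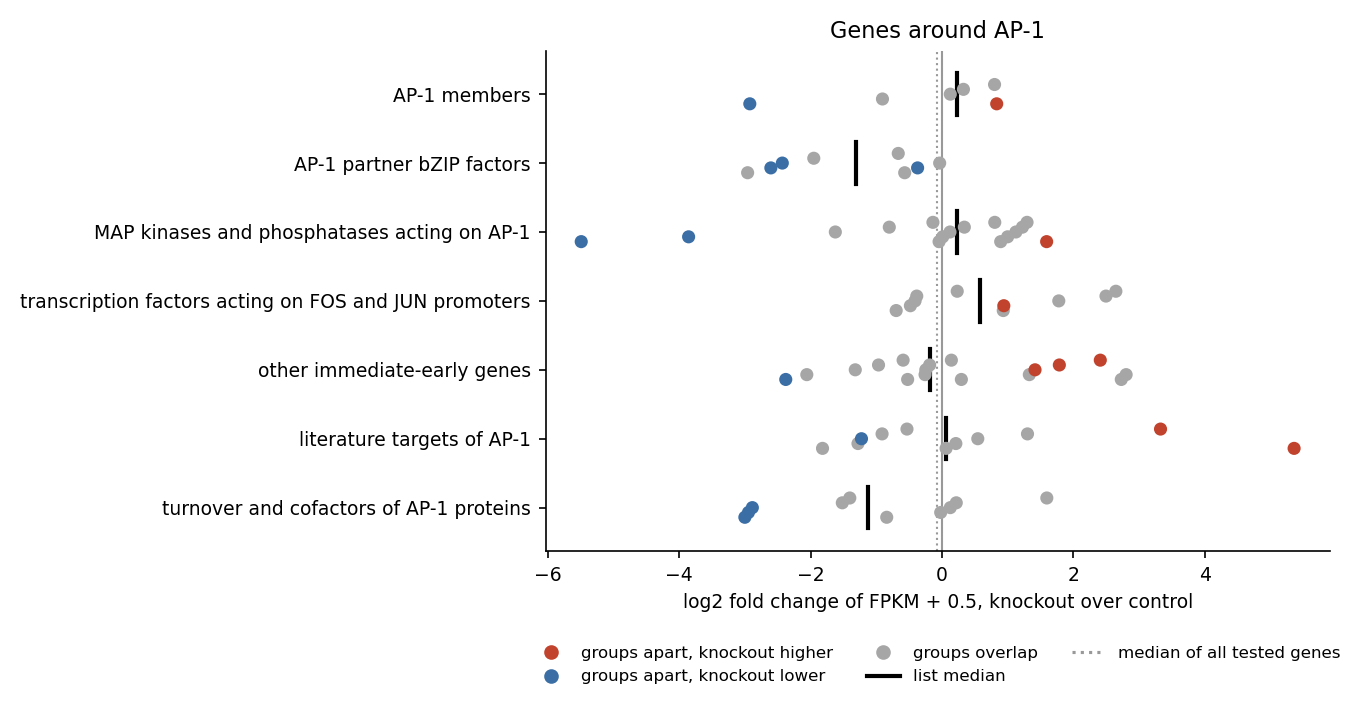
Fitted log2 fold changes of FPKM + 0.5, knockout over control, for the tested genes of the family and of 6 lists around it, coloured by whether the groups overlap, with list medians as bars. No point passed the threshold; the medians run from −1.31 for the partner bZIP factors to 0.58 for the factors acting on the FOS and JUN promoters.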

How the data were processed

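PolyA RNA libraries followed the Illumina TruSeq protocol, per the labels' protocols. The authors deposited a table of FPKM per library, each headed as input, with reads counted by HTSeq per the file names; hg38 is named in the submitters' processing notes. Aligner, annotation release and strand setting: not given in the sources used here. FPKM multiplied by the length of the longest GENCODE 29 transcript were whole multiples of the worth of 1 read for 96.4 to 96.5% of genes above 0 (tolerance 0.0001), which gave reads and depth. FPKM by this length understate genes whose shorter transcripts dominate. Intervals and floors (3 reads) cover counting error only.

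The test, for genes whose mean FPKM reached 1, was a linear model in limma 3.58.1 (R 4.3.3), moderated by eBayes with its trend option, on log2(FPKM + 0.5). It set knockout over control and was two-sided, Benjamini-Hochberg adjusted over 11463 genes at 0.05. The SE came from all genes of similar level, and the replicates of the gene itself did not enter it. The fit was tested on simulated counts with known changes, where the replicates of a group shared the same mean apart from depth. That test does not show how the fit performs at the replicate spread of these libraries. The members, the lists and the rule for named genes were chosen with earlier results of these data known. The rule takes the 7 members, IGF2BP3, up to 4 genes of each list with the largest change among those whose groups do not overlap, and the 3 genes nearest to the most abundant FOS and JUN genes. For 1 gene this rule names, the result is not reported here. Other genes named were chosen after their values were seen. They include genes at 0, JDP2, MAFG, MAPK8 and MAPK9, the overlapping genes HOOK2, ERCC1 and MALSU1, and those of the closing section. Sequences came from RefSeq (GRCh38.p14) and GENCODE 29. Tried as alternatives were limma-voom on the reads, other pseudocounts and filters, quantile and median scaling, eBayes with no trend, the replicate number as block, and leaving out each library. Python 3.11.15, pandas 2.3.3 and matplotlib 3.10.9 were used.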

Additional observations from a re-analysis of the deposited data

How the results depend on the processing

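The count of family members past the threshold was 0 in all 13 alternatives. The count of 10 genes over the whole table was 7 to 14 in 8 alternatives, 14 of them with the replicate block, and 0 where eBayes used no trend (415 had an unadjusted p under 0.05). It was 0 with any 1 library left out (752 to 1025 had an unadjusted p under 0.05). The median log2 fold change of the family was 0.23, 0.13 to 0.56 in alternatives that kept the 4 libraries and −0.56 to 0.56 with a library left out. Over all genes the median was −0.56 to 0.34 with a library left out. Genes named by the rule kept their sign and their side of the threshold in all 262 values from alternatives that kept 4 libraries. The other filters, eBayes with no trend and the replicate block leave the fold change as it is, so no sign could turn there. No named gene was past the threshold in the main fit, so only a gain could have changed its side. With a library left out, named genes kept both in 111 of 120 values. The sign turned for FOSL1 (−0.10 to 1.70), JUNB (−2.68 to 2.93), JUND (−2.08 to 0.27), ACOT7 (−1.71 to 0.45), AFG3L2 (−0.82 to 1.40) and PSME3 (−0.46 to 0.96). In these fits the single library left in a group is taken to vary as the other group does, and the cause of the changes was not tested. Deviations of same-numbered libraries correlated at −0.004 across 11463 genes. The count of genes above 0 went with the replicate number, however. It was 7827 and 11127 in knockout 1 and 2, against 8856 and 11433 in control 1 and 2, and the cause was not tested. With 811823 to 2162179 reads per library, 3 reads of a member stood for FPKM 0.361 to 2.21 in the knockouts and 0.207 to 0.961 in the controls, and lower levels could not be told from 0.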

Other observations

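Some immediate-early genes resembled JUNB in being low in the libraries numbered 1 and higher in those numbered 2 of both groups. EGR1, a zinc finger factor induced beside FOS, had FPKM 0 and 12.1 in knockout 1 and 2, against 0.442 and 9.03 in control 1 and 2. SGK1, a kinase induced by serum and glucocorticoid, had 0.450 and 27.8 in knockout 1 and 2, against 1.35 and 29.5 in control 1 and 2. IER2 showed the opposite, at 96.6 and 40.4 in knockout 1 and 2, against 114 and 44.3 in control 1 and 2. Across all genes tested such deviations were uncorrelated between same-numbered libraries (−0.004). Fewer genes were nevertheless above 0 in the libraries numbered 1 (7827 in knockout 1, 8856 in control 1) than in those numbered 2 (11127 and 11433).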
